A study of Rattus norvegicus with 12 samples.

Results

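Gene expression was compared between the hematoma that filled a 0.5 mm defect of the rat femur, which the study calls normal healing, and the piece of femur removed at surgery, which it calls preOP. The 6 libraries were chosen by their titles, 3 for each group, out of 12 in the series. The other 6 libraries, 3 from 1.5 mm (delayed healing) and 3 from 5.0 mm (nonunion) defects, share the fit and are used below only to test where the normal hematoma differed from other hematomas. Per the labels the rats were male, of the strain SAS Fischer, and weighed 200 to 225 g. The femur pieces came from the animals that received 5.0 mm defects and had no treatment of their own, so they are not the same animals' bone as the 0.5 mm hematoma. The labels give neither the time at which the hematoma was taken nor the number of animals behind a library, and p-values therefore measure the spread between libraries, which may be technical.

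A fracture hematoma starts as a clot of blood, is entered by neutrophils and macrophages, and is replaced by fibrous tissue, cartilage and woven bone laid down by cells of the periosteum and marrow. A femur piece in a young rat holds mineralised bone with osteocytes and, in its cavity, marrow that produces red cells, neutrophils, platelets and B lymphocytes. In bulk RNA of this kind, fewer cells of a type and less RNA per cell cannot be told apart.

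Of 17379 features with a row, 12846 passed the filter on low counts and were tested, and 5466 of these (42.6%) differed between the normal hematoma and the femur at an adjusted p below 0.05. In the hematoma 2630 genes were higher (20.5% of those tested) and 2836 were lower (22.1%). Counts within a gene list are read against these 2 shares. At least 4-fold differences made up 986 of the higher and 1281 of the lower calls. The median log2 fold change over all genes tested was -0.09 (hematoma minus femur, as in every fold change below), and it moved to 0.03 when globin and ribosomal RNA reads were taken out before scaling. In 66.9% of the genes tested the 3 hematoma libraries did not overlap the 3 femur libraries.

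**Figure D1:**
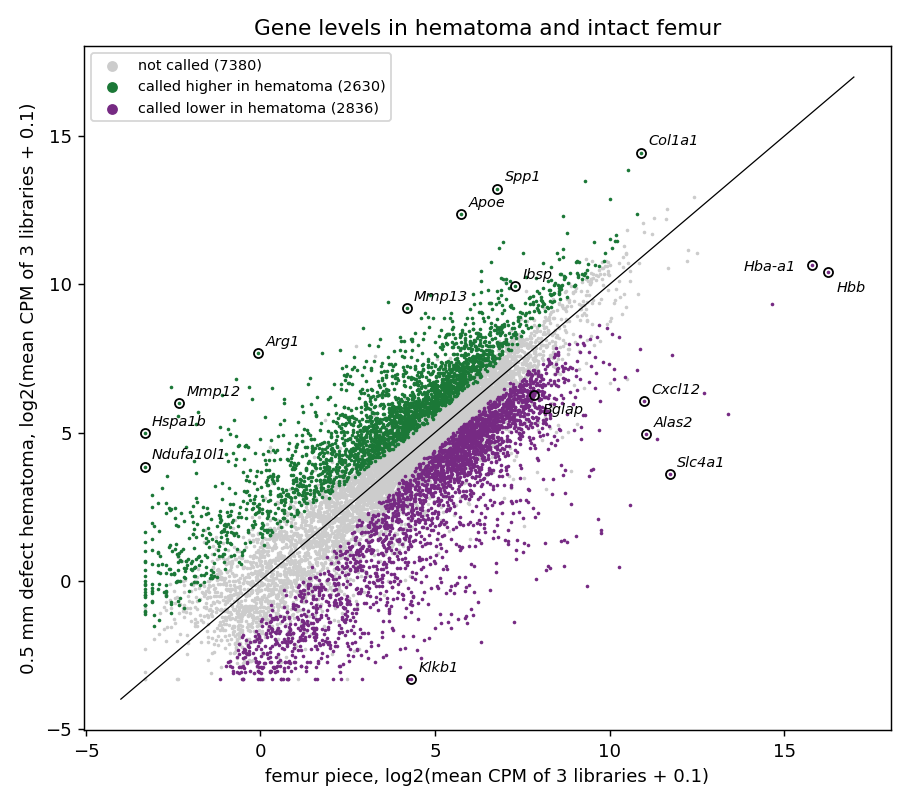
Each point is 1 of 12846 genes, at its mean level in the 3 femur libraries (x axis) and the 3 hematoma libraries (y axis), as log2 of the mean CPM plus 0.1, where CPM is the read count scaled to a common library size after TMM normalization. The line marks equal levels. Globins, Alas2, Slc4a1 and Cxcl12 lie far below it, and Col1a1, Spp1, Apoe, Arg1 and Mmp12 far above it.

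Depth was alike, at 16979305 to 18890622 estimated reads in the hematoma and 16808993 to 19158121 in the femur. Within the hematoma, library normal 2 stood apart in the reads left after globins and ribosomal RNA were taken out. Of these, 26.1% fell on transcripts under 1000 nt, against 17.8% in normal 1, 18.0% in normal 3 and 15.2% to 15.4% in the femur. The first principal component of the 6 libraries (81.5% of the variance) separated hematoma from femur, and the second (12%) placed normal 2 at -70.4 against 48.1 and 35.8 for normal 1 and 3. The deposited files of the 3 hematoma libraries also differ in form from all others. Only 16.82% to 18.1% of their estimated counts carry a decimal point, against 100% in the other files. Transcripts exceeded their effective length by a median of 157.2 to 191.6 nt in the hematoma and 209.5 to 235.8 nt in the femur. This split coincides with the group, so an effect of it and the difference between the tissues cannot be told apart.

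Red cell genes were far lower in the hematoma than in the femur. The listed globins, the oxygen-carrying chains of haemoglobin, took 15.7%, 14.7% and 22.8% of all reads in the 3 femur libraries and 0.747%, 0.276% and 0.273% in the hematoma. The groups did not overlap, and the exact permutation test gave the smallest p that 3 against 3 libraries allow, 0.1 (0.113 after adjustment over the 44 lists). For the beta chain Hbb the hematoma libraries held 1910, 1170 and 988 CPM (read counts scaled to a common library size after TMM normalization), and the femur held 78300, 64100 and 90500 CPM. All 3 hematoma values lay far below the lowest femur value, with a log2 fold change of -5.84 (SE 0.94, adjusted p = 0.00087). Of 7 globin genes tested, 6 fell and 1, Hba-a3, rose, from 3.5, 1.46 and 5.12 CPM to 30.4, 13.1 and 11.5 CPM (log2 2.45), and its call was lost without normal 1 or preOP 2. Near-identical globin copies can share reads, so the split among them is uncertain. The beta-like gene Hbbl1, outside the list, was at 74.5, 37.4 and 34.5 CPM against 10800, 9000 and 12600 CPM (log2 -7.79).

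Genes of the developing red cell fell together with the globins. All 12 tested genes of heme synthesis were lower, with a median log2 fold change of -3.96 against -0.09 over all genes. Alas2, the erythroid enzyme for the first step of heme synthesis, stood at 69.5, 9.49 and 12.4 CPM in the hematoma and 1900, 1790 and 2700 CPM in the femur (log2 -6.13, SE 1.11, adjusted p = 0.0016). The hematoma libraries lay below the femur without overlap, with normal 1 the highest of them. Slc25a37, the mitochondrial iron importer, fell by 6.33 on the log2 scale, and Fech, which inserts iron into the ring, fell by 4.63. Among 13 membrane and carbonic anhydrase genes of the red cell 12 were lower, with a median of -7.94. The anion exchanger Slc4a1 stood at 28.2, 2.63 and 4.82 CPM against 2550, 2820 and 4800 CPM (log2 -8.15). Normal 1 was again the highest of the hematomas, and all 3 lay below the femur. Of 9 erythroid regulators 8 were lower, with a median of -5.74: the transcription factors Klf1 (log2 -6.68) and Gata1 (log2 -6.35) and the erythropoietin receptor Epor (log2 -5.90) led them, while Lmo2, which also serves other blood lineages, was at -0.45 and did not pass the test.

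The 200 bases before the transcription start of 3 of these genes are shown because the motifs of erythroid promoters can be read in them. They are RefSeq sequences of the rat assembly GRCr8, not of the rn6 build used by the authors, at chrX:22895250-22895449 (plus strand), chr10:15842581-15842780 (minus strand) and chr1:167643521-167643720 (minus strand). Capitals mark 3 motifs, each searched on both strands. AGATAA is bound by factors such as Gata1. Other sequences with GATA, such as tgataa in the Hba-a1 window, are neither marked nor counted. CACCC is bound by Klf1 and related factors. The third, TATAAA, is the core promoter element that positions transcription.
Alas2: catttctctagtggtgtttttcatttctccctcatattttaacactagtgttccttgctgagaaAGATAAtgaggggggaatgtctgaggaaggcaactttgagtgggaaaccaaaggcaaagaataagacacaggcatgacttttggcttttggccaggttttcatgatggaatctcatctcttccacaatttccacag
Hba-a1: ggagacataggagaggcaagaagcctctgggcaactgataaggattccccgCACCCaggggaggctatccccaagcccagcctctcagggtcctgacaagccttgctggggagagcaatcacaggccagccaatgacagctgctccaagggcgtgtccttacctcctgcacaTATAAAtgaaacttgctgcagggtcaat
Hbb-b1: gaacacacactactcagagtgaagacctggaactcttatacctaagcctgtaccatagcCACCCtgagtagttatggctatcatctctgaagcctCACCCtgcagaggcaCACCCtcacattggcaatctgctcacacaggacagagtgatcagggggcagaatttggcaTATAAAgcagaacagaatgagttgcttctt
The Alas2 window held 1 AGATAA, the Hba-a1 window 1 CACCC and 1 TATAAA, and the Hbb-b1 window 3 CACCC and 1 TATAAA. In 250 bases before the start, AGATAA was found in 18.8% of 32 promoters of the 4 red cell lists, in 6.04% of 9860 tested genes with a promoter in the table and in 10% of all 27457 promoters. CACCC was found in 65.6%, 56.9% and 49.4% of the same sets, and TATAAA in 25.0%, 7.46% and 13.1%. Of the 2141 genes that fell and have a promoter there, 6.96% held AGATAA. These shares describe letters in a window and were not tested.

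Other marrow lineages were lower as well, to different degrees. B lymphocyte genes fell in 14 of 19 tested (median log2 fold change -4.22). Rag1, which cuts immunoglobulin genes in B cell precursors, fell by 5.37 and the surrogate light chain gene Vpreb1b by 6.41 on the log2 scale. Eosinophil, basophil and mast cell genes fell in 11 of 16, led by the mast cell proteases Tpsb2 (log2 -6.70) and Cma1 (log2 -6.51). The eosinophil granule gene Epx, at 120, 31.6 and 34.9 CPM against 78.1, 92.5 and 77.1 CPM, overlapped and was not called. Of 5 progenitor genes, Gata2, Kit and Meis1 fell and Spi1 rose, and the rise was not called without preOP 1 or preOP 3. T and NK lymphocyte genes fell in 7 of 19 and rose in 1, Cd8b, and the count of 7 became 3 to 5 when any 1 of the 6 libraries was left out. Cd3e, a chain of the T cell receptor complex, was at 1.05, 1.29 and 0.766 CPM against 5.77, 3.92 and 4.19 CPM and did not pass (adjusted p = 0.067). Klrb1 had no read in the hematoma and was not among the genes tested.

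Neutrophil and platelet genes differed between the hematoma libraries. The calprotectin gene S100a8 stood at 3360 CPM in normal 1 and at 589 and 616 CPM in normal 2 and 3, against 3560, 3340 and 2860 CPM in the femur. Normal 1 lay within the femur range, the other 2 hematomas below it, and the gene was not called (log2 -1.10, adjusted p = 0.45). Of 13 mature neutrophil genes none fell (3 without normal 1) and 1, the protease inhibitor Slpi, rose (log2 1.92, adjusted p = 0.049), a call lost with the removal of any library except normal 1. On the list of neutrophil precursors, which holds mostly granule genes, 5 of 14 fell. Ngp, a granule protein, stood at 227, 6.37 and 31 CPM against 1240, 1300 and 1090 CPM (log2 -3.78, adjusted p = 0.014), again highest in normal 1. That count was 9 without normal 1 and 2 without normal 3, and the call of Ngp was lost without normal 3. Megakaryocyte and platelet genes fell in 8 of 10 (4 of 10 without normal 3). Gp1ba, part of the platelet receptor for von Willebrand factor, stood at 14.5, 0.735 and 2.93 CPM against 144, 155 and 146 CPM (log2 -4.61, adjusted p = 0.0022), whereas the platelet chemokine Pf4 overlapped, at 258, 400 and 210 CPM against 301, 398 and 429 CPM.

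Cxcl12, the chemokine by which marrow stroma retains blood stem cells, stood at 62.1, 79 and 58.7 CPM in the hematoma and 2720, 2340 and 1090 CPM in the femur (log2 -4.95, SE 0.86, adjusted p = 0.0013). No hematoma value came near the femur range. Stab2, a scavenger receptor of sinusoidal endothelium, fell from 43.7, 37.1 and 28.1 CPM to 0.501, 0.184 and 0.135 CPM (log2 -7.02, adjusted p = 0.0019). Of 19 endothelial genes, Stab2 included, 3 rose (15.8%) and 2 fell (10.5%), shares below the 20.5% and 22.1% of all genes, and the median was 0.73. The other that fell, Vwf, lost its call without normal 2, normal 3, preOP 2 or preOP 3. Pecam1, a junction protein of all endothelium, was at 157, 135 and 129 CPM against 90.1, 79.9 and 73.5 CPM and was not called (adjusted p = 0.21), while Sox18, a vessel transcription factor, rose (log2 2.68, adjusted p = 0.0059). Without delayed 2 and nonunion 2 in the fit, 9 of 19 rose.

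**Figure D2:**
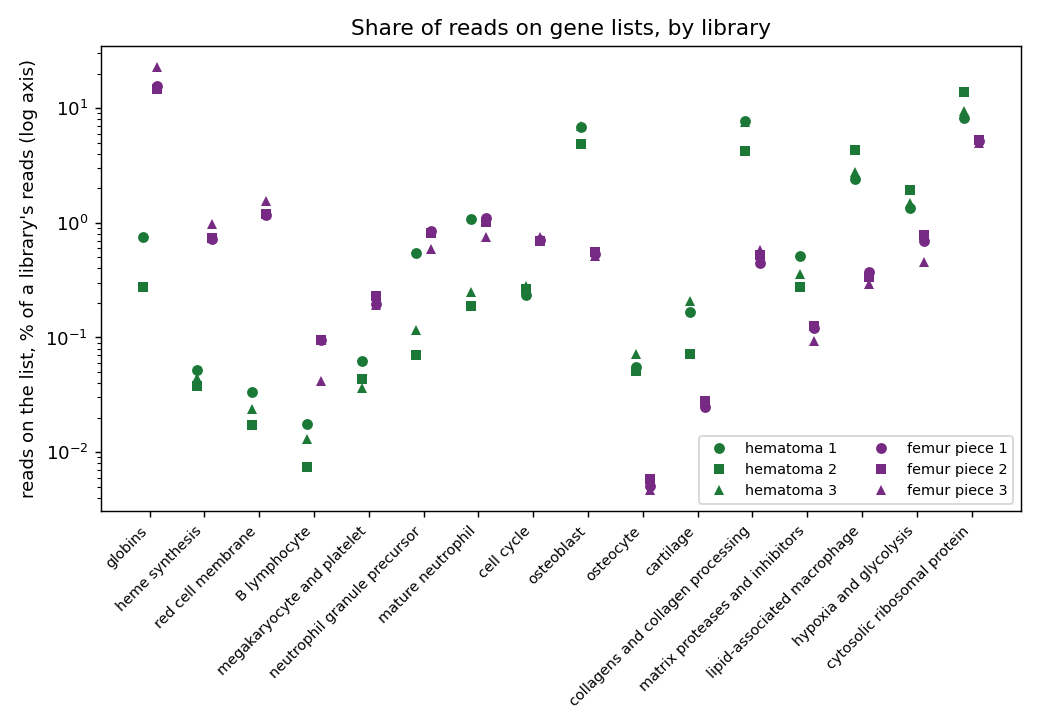
Share of all reads on selected gene lists in each of the 6 libraries, on a log axis in percent. Points are single libraries. Colours stand for the group and shapes for replicates 1 to 3. Globins held 14.7% to 22.8% of reads in the femur and at most 0.747% in the hematoma, while collagens held at most 0.582% in the femur and at least 4.2% in the hematoma.

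Genes of bone-forming cells were higher in the hematoma than in the bone piece itself. Of 14 osteoblast genes 11 rose (median log2 fold change 2.86), and together the list took 6.88%, 4.83% and 7.0% of reads in the hematoma and 0.531%, 0.558% and 0.518% in the femur. Most of that share lay on Col1a1, Col1a2, Sparc and Spp1. In normal 1 they stood at 26000, 17100, 8450 and 6770 CPM, of 59900 CPM for the list. Col1a1 and Col1a2 are also on the collagen list, so the shares of the 2 lists hold many of the same reads. Col1a1, the main chain of bone collagen, stood at 26000, 16800 and 24400 CPM against 1720, 1920 and 2100 CPM (log2 3.55, SE 0.58, adjusted p = 0.00091). Its 3 hematoma values were all above the femur, with normal 2 the lowest. Alpl, the phosphatase that frees phosphate for mineral, stood at 307, 369 and 294 CPM against 28.2, 35.2 and 61.8 CPM (log2 2.95, adjusted p = 0.00083). Ibsp, bone sialoprotein, stood at 870, 907 and 1180 CPM against 213, 150 and 113 CPM (log2 2.64, SE 0.34, adjusted p = 0.00028). For both genes the groups were apart. Spp1, osteopontin, rose by 6.46 on the log2 scale, from 121, 101 and 108 CPM to 6770, 14200 and 7990 CPM, and macrophages make it too. The transcription factor Sp7, needed to form osteoblasts, rose to 23.3, 5.69 and 21.4 CPM from 0.888, 1.75 and 2.28 CPM (log2 3.36, adjusted p = 0.021), but its call was kept only with all libraries in or with normal 2 left out, among the fits that left out a library of these groups. Runx2, the factor upstream of it, was at 76.3, 37.8 and 62 CPM against 50.2, 46.1 and 41.8 CPM and was not called.

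The 1 osteoblast gene that fell was Bglap, osteocalcin, the late marker of matrix-embedded osteoblasts. It stood at 79.8, 84.7 and 68.8 CPM in the hematoma and 232, 259 and 190 CPM in the femur (log2 -1.55, SE 0.29, adjusted p = 0.0019), with no overlap. Osteocyte genes nevertheless rose in 7 of 7 tested (median 3.11). Dmp1, which helps mineral form around osteocytes, stood at 168, 117 and 227 CPM against 26.4, 26.6 and 30.2 CPM (log2 2.62, adjusted p = 0.028). Mepe, a matrix phosphoprotein of mineralising bone, stood at 106, 93.7 and 99 CPM against 11, 16.1 and 7.52 CPM (log2 3.11, SE 0.53, adjusted p = 0.0012). Pdpn, found in young osteocytes and in fibroblasts, rose by 5.55 on the log2 scale. Sost, the Wnt inhibitor of mature osteocytes, had 82 reads over the 3 hematomas and 1 over the 3 femurs, a ratio of 80.9 (95% interval 14.1 to 3230, counting error only). Of the markers of mineralised bone, Bglap, Ibsp and Dmp1 had reads in all 3 femur libraries, while Sost was at or near 0 there.

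Cartilage genes rose in 10 of 13 tested (median 2.85), at lower levels. Col2a1, the collagen of cartilage, stood at 75.7, 31.5 and 102 CPM against 0.444, 0.849 and 0.925 CPM (log2 6.56, SE 1.47, adjusted p = 0.0049), with every hematoma library above every femur. Sox9, which directs cartilage formation, stood at 24.7, 13.6 and 16.1 CPM against 2.91, 3.26 and 3.02 CPM (log2 2.56, adjusted p = 0.00048). Acan, the large proteoglycan, rose by 3.90 on the log2 scale (adjusted p = 0.021), a call lost without preOP 1 or preOP 2. Sox6, a partner of Sox9 that red cell precursors also use, fell by 3.24 and Chad, a matrix protein, fell by 2.30, but neither was called without normal 2, normal 3 or preOP 3, and only 1 of them without normal 1 or preOP 2. Matn1 had no read in the hematoma and was not among the genes tested.

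Collagens and the enzymes that process them rose in 24 of 26 tested, and none fell (median 3.19). Col3a1, the fibrillar collagen of early repair tissue, stood at 14600, 7600 and 12600 CPM against 307, 516 and 1080 CPM (log2 4.19, SE 0.65, adjusted p = 0.0007). Serpinh1, the chaperone that folds collagen in the endoplasmic reticulum, stood at 2300, 2810 and 3240 CPM against 108, 112 and 152 CPM (log2 4.49). In both cases all hematomas lay above all femurs. Of 23 matricellular and fibroblast genes 14 rose (median 2.41), among them Cthrc1 (log2 4.56) and Fn1, fibronectin (log2 2.94), while thrombospondin Thbs1, at 355, 32.1 and 262 CPM against 542, 652 and 499 CPM, was not called. Hyaluronan genes rose in 6 of 13 and fell in 2. Has2, the synthase, stood at 129, 65.7 and 80.3 CPM against 0.543, 1.04 and 0.493 CPM (log2 7.02, SE 0.96, adjusted p = 0.00038).

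Matrix proteases and their inhibitors rose in 13 of 24 and fell in none (median 1.78). Mmp13, the collagenase of growth plate and woven bone, stood at 1140, 204 and 413 CPM against 15.9, 24.5 and 14.2 CPM (log2 5.01, SE 0.74, adjusted p = 0.00057). Mmp12, the macrophage elastase, stood at 70.2, 39.2 and 82.1 CPM against 0.247, 0.0472 and 0 CPM (log2 9.20, adjusted p = 0.0015). Both were far above the femur in every hematoma library. The inhibitor Timp1 rose with them, from 12.8, 10 and 14.6 CPM to 583, 881 and 594 CPM (log2 5.78, adjusted p = 0.00013). Mmp3, stromelysin, had 360 reads over the 3 hematomas and 3 over the 3 femurs, a ratio of 118 (95% interval 40.2 to 577, counting error only). Mmp9, the gelatinase of osteoclasts and neutrophils, was at 294, 51.4 and 45.6 CPM against 249, 266 and 241 CPM, overlapped through normal 1 and was not called.

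Promoters of Mmp3, Mmp12 and Mmp13, 3 of the 13 protease and inhibitor genes that rose, and of Bglap, which fell, are shown as the counterpart to the erythroid set. The choice is no sample of the list, most of whose promoters lack the first motif. They are again 200 bases before the start in GRCr8, at chr8:12925081-12925280, chr8:12866452-12866651 and chr8:12782629-12782828 on the plus strand and chr2:176137319-176137518 on the minus strand. Capitals mark TGANTCA, the AP-1 motif, and AACCACA, a RUNX motif, searched on both strands.
Mmp3: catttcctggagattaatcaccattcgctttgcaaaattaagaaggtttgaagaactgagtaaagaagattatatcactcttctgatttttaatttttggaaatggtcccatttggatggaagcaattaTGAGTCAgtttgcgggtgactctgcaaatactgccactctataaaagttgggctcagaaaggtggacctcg
Mmp12: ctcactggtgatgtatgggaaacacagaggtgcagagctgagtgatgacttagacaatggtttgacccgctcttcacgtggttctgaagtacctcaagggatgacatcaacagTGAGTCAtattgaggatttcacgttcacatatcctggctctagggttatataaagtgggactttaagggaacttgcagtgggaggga
Mmp13: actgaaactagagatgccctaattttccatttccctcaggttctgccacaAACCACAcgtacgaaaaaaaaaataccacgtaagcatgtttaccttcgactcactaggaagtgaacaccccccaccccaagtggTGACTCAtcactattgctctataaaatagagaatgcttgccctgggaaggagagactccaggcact
Bglap: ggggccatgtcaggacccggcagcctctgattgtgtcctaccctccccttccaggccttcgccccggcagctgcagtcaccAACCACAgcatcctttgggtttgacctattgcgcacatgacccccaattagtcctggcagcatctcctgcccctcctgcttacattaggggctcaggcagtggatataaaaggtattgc
Each protease window held 1 AP-1 motif, and those of Mmp13 and Bglap held 1 RUNX motif each. In 250 bases before the start, TGANTCA was found in 23.5% of 17 protease and inhibitor promoters, in 4.82% of tested genes, in 6.36% of all promoters and in 5.48% of the 2027 genes that rose and have a promoter in the table. AACCACA was found in 14.3% of 14 promoters of the osteoblast and osteocyte lists, in 3.68% of tested genes and in 4.54% of all promoters. Of the genes whose products form AP-1, Junb stood at 142, 208 and 109 CPM against 12.3, 9.96 and 19.2 CPM (log2 3.47, adjusted p = 0.0012) and Jun at 96.9, 106 and 84.6 CPM against 39.5, 29.4 and 25.4 CPM (log2 1.61), whereas Fos, at 27, 22.7 and 28.8 CPM against 52.2, 29.3 and 30.8 CPM, was not called. In all, 5 of 16 immediate early genes rose and none fell (median 1.27), and 8 rose without delayed 2 and nonunion 2 in the fit.

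Of 13 osteoclast genes 4 were higher (30.8%) and 2 lower (15.4%), with a median of 0.01. Ctsk, the protease by which osteoclasts digest bone collagen, stood at 471, 320 and 264 CPM in the hematoma and 31.8, 32.8 and 42.8 CPM in the femur (log2 3.30, SE 0.48, adjusted p = 0.00054). Atp6v0d2, a subunit of their proton pump, rose by 6.08 on the log2 scale, Tnfrsf11a, the receptor RANK, by 3.08 and Acp5, the acid phosphatase TRAP, by 2.07. The 2 that fell are also genes of other lineages: carbonic anhydrase Car2 of red cells (log2 -6.58) and integrin Itgb3 of platelets (log2 -3.27, a call lost without normal 3 or preOP 2).

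**Figure D3:**
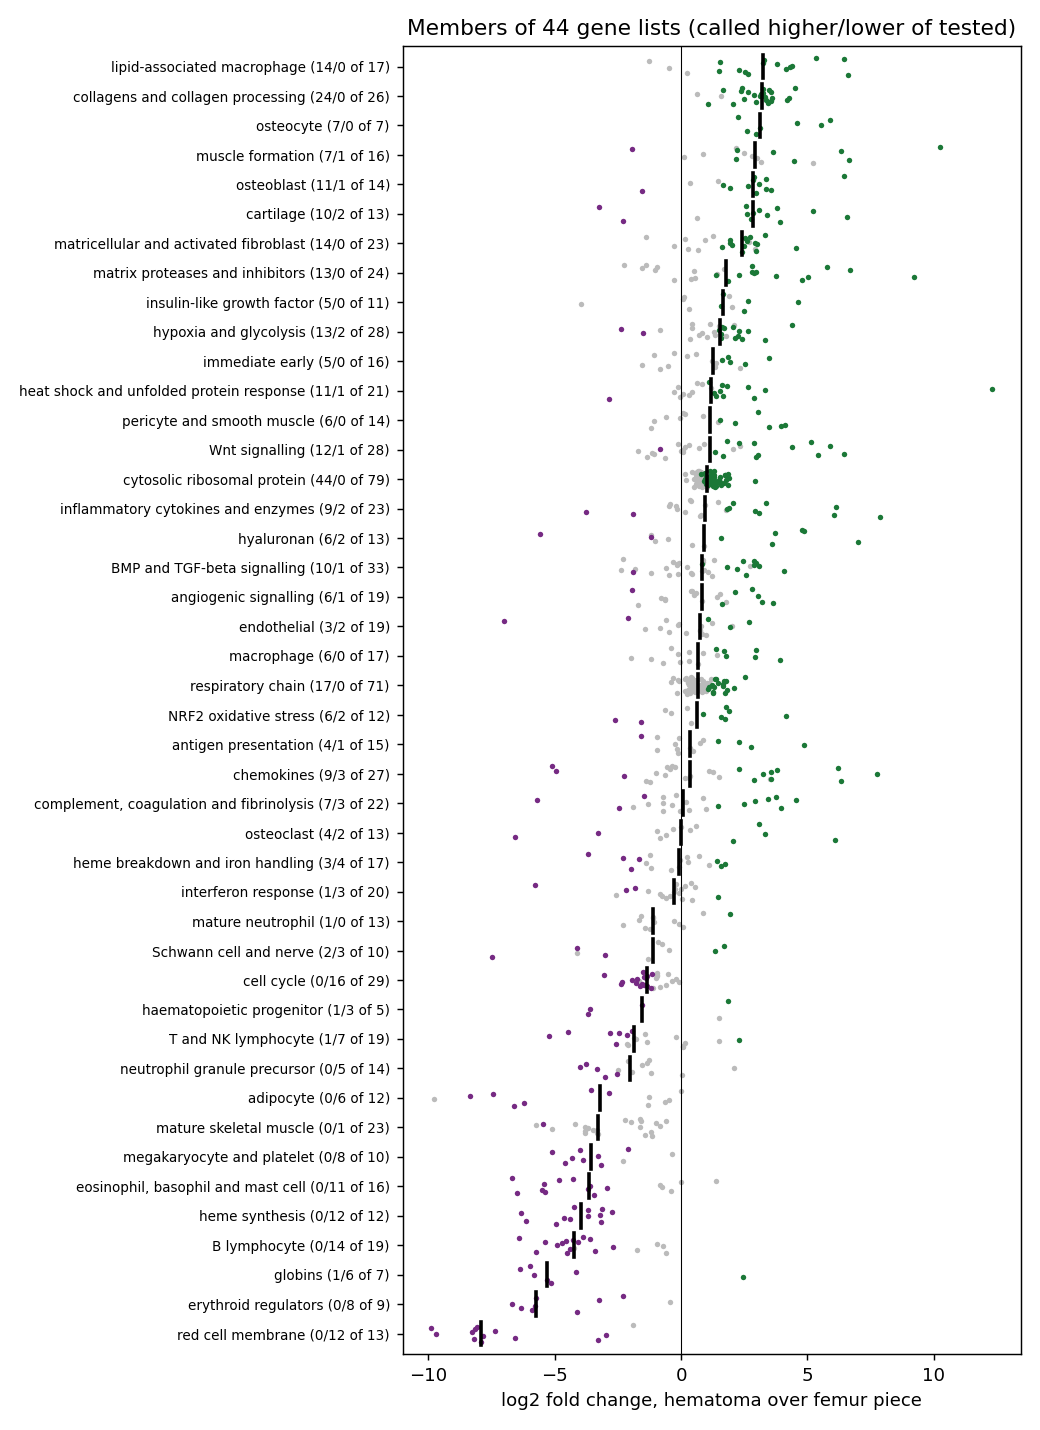
Log2 fold change (hematoma minus femur) of every tested member of the 44 gene lists, 1 row per list. Gray points were not called, green were called higher and purple lower, the bar is the list median, and the labels give the counts. Red cell, B lymphocyte and mast cell lists lie to the left of 0, and collagen, cartilage, osteocyte and lipid-associated macrophage lists to the right.

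In the Wnt pathway, which acts in bone formation, 12 of 28 genes rose (42.9%) and 1 fell (median 1.14). The receptor Fzd2 stood at 46, 40.8 and 40.6 CPM against 0.345, 0.378 and 0.74 CPM (log2 6.45, SE 0.64, adjusted p = 0.0001), and the secreted antagonist Frzb at 16.9, 24.1 and 28.3 CPM against 0.444, 0.613 and 0.555 CPM (log2 5.41). Both were apart from the femur in every library. The Wnt target Axin2 was at 2.21, 0.49 and 2.25 CPM against 2.27, 2.69 and 2.71 CPM and was not called. Of 33 BMP and TGF-beta genes 10 rose (30.3%, against 20.5% of all genes) and 1, Bmp6, fell (median 0.84). The target Id3 stood at 191, 369 and 239 CPM against 29.5, 29.4 and 36.1 CPM (log2 3.07, adjusted p = 0.00031), and the ligand Tgfb3 rose by 2.90 on the log2 scale. Bmp2, a ligand long tied to fracture repair, was at 6.27, 1.16 and 4.1 CPM against 6.71, 4.25 and 1.73 CPM and overlapped. Of 11 insulin-like growth factor genes 5 rose, Igf1 among them (log2 2.48), and none fell (median 1.67).

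Among vessel signals 6 of 19 rose (31.6%) and 1, Vegfc, fell (median 0.82). Vegfa, the main vessel growth factor, was at 136, 81.4 and 99.2 CPM against 80.5, 80.1 and 73 CPM: the groups did not overlap, but the difference was not called (log2 0.44, adjusted p = 0.37). Pdgfa, which attracts mesenchymal cells, rose by 3.03 on the log2 scale. Pericyte and smooth muscle genes rose in 6 of 14 and fell in none (median 1.16). Acta2, smooth muscle actin, which contractile fibroblasts also make, stood at 403, 233 and 214 CPM against 26.1, 21.3 and 28.7 CPM (log2 3.48, adjusted p = 0.00027), above the femur in every library.

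Of 17 general macrophage markers 6 rose (35.3%) and none fell (median 0.66). Cd68, a lysosomal marker, stood at 248, 406 and 234 CPM against 43.4, 44.1 and 28.5 CPM (log2 2.93, adjusted p = 0.0012), while the complement gene C1qa, at 108, 112 and 98.8 CPM against 186, 189 and 143 CPM, was not called. On the list for lipid-associated macrophages, which take up debris and fat, 14 of 17 rose (median 3.24). The difference between the lists was not tested. Apoe, a lipid carrier, stood at 3990, 8670 and 3300 CPM against 49.6, 56.6 and 55.6 CPM (log2 6.62, SE 0.66, adjusted p = 0.00011). The receptor Trem2 stood at 42.4, 181 and 76.3 CPM against 2.22, 2.55 and 2.59 CPM (log2 5.34, adjusted p = 0.00043). Normal 2 was the highest library for both, and no hematoma overlapped the femur. Lpl and Fabp4 of that list, which fat cells also express, were not called.

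Cytokine genes rose in 9 of 23 and fell in 2 (median 0.96). Arg1, the arginase of repair macrophages, stood at 144, 249 and 220 CPM against 0.987, 0.897 and 0.678 CPM (log2 7.89, SE 1.28, adjusted p = 0.00093). Il6 stood at 6.52, 5.39 and 3.65 CPM against 0.0987, 0.0944 and 0 CPM (log2 6.13, adjusted p = 0.0044). Each was apart from the femur, whereas the inflammatory cytokines Il1b (adjusted p = 0.91) and Tnf (adjusted p = 0.72) were not called. Chemokines rose in 9 of 27 (33.3%) and fell in 3 (median 0.34), and 5 rose without normal 2, preOP 2 or preOP 3. The monocyte chemokine Ccl7 stood at 67.2, 180 and 86.1 CPM against 0.641, 0.519 and 0.37 CPM (log2 7.74, SE 0.91, adjusted p = 0.00018). Ccl19 had no read in the hematoma.

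Interferon-induced genes were mostly not called, with 1 of 20 higher, 3 lower and a median of -0.27. Rsad2, an antiviral enzyme, was the exception in size, at 25.5, 7.84 and 7.48 CPM against 635, 647 and 944 CPM (log2 -5.77, SE 0.75, adjusted p = 0.00029). Of 15 antigen presentation genes 4 rose (26.7%, near the 20.5% of all genes) and 1 fell (median 0.37). The class I gene RT1-A2 stood at 205, 426 and 114 CPM against 7.7, 6.94 and 11.2 CPM (log2 4.85, SE 0.57, adjusted p = 0.00017), while beta-2 microglobulin, B2m, was at 1800, 1760 and 1510 CPM against 2120, 1860 and 1580 CPM and was not called. RT1 genes are near-identical and differ between strains and haplotypes, so reads may be split among them. Complement and clotting genes rose in 7 of 22 (31.8%) and fell in 3 (median 0.07). The plasminogen activator Plat stood at 169, 94.2 and 177 CPM against 4.89, 6.32 and 7.64 CPM (log2 4.55, adjusted p = 7.7e-05), and of the liver fibrinogen genes Fga had no read in either group and Fgb and Fgg none in the femur.

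Genes of the hypoxia response and glycolysis rose in 13 of 28 and fell in 2 (median 1.54). Slc2a1, the basal glucose transporter, stood at 89.8, 154 and 116 CPM against 6.07, 5.43 and 5.86 CPM (log2 4.37, adjusted p = 0.0038). The count of 13 became 8 or 9 when any 1 of the 6 libraries was left out and 22 without delayed 2 and nonunion 2 in the fit. Heat shock and unfolded protein genes rose in 11 of 21 and fell in 1 (median 1.20). The inducible chaperone Hspa1b had 1891 reads over the 3 hematomas and 0 over the 3 femurs, at least 622-fold higher against a floor of 3 reads over the group, but it shares most of its sequence with Hspa1a, which rose from 6.32, 2.31 and 4.93 CPM to 38.3, 51.9 and 43.5 CPM. Oxidative stress genes rose in 6 of 12, led by the metallothionein Mt2A (log2 4.17), and fell in 2, Gclm (log2 -2.62) and Gclc (log2 -1.57), the subunits of the enzyme that starts glutathione synthesis (median 0.63).

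Of 17 heme breakdown and iron genes 3 rose (17.6%) and 4 fell (23.5%), near the 20.5% and 22.1% of all genes (median -0.10). Hmox1, the enzyme that opens the heme ring, stood at 1040, 1590 and 1260 CPM against 464, 405 and 288 CPM (log2 1.75, SE 0.46, adjusted p = 0.011). The hematomas lay above every femur. Tfrc, the transferrin receptor by which red cell precursors take up iron, fell by 3.68 on the log2 scale. Without preOP 1 the count that rose was 1. The uptake receptor Cd163, at 25.3, 68 and 60.1 CPM against 157, 120 and 77.5 CPM, did not overlap but was not called (adjusted p = 0.12).

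Cell cycle genes were lower in the hematoma in 16 of 29 and higher in none (median -1.34). Mki67, a marker of dividing cells, stood at 234, 194 and 242 CPM against 1820, 1720 and 2050 CPM (log2 -3.06, SE 0.45, adjusted p = 0.00053), and the groups were far apart. Other members differed less, such as Cdk1, at 76.6, 170 and 107 CPM against 136, 139 and 174 CPM, which overlapped. The count was 6 to 10 when any 1 of the 6 libraries was left out, 12 without globin and ribosomal RNA reads and 24 without delayed 2 and nonunion 2 in the fit. Cytosolic ribosomal protein genes rose in 44 of 79 and fell in none (median 1.03). They took 8.21%, 13.8% and 9.52% of reads in the hematoma and 5.19%, 5.31% and 4.96% in the femur. Respiratory chain genes rose in 17 of 71 (23.9%, near the 20.5% of all genes) and fell in none (median 0.65). Normal 2, with its excess of reads on short transcripts, was their highest library. Reads on ribosomal protein genes are themselves part of that excess. Without normal 2, 25 ribosomal and 9 respiratory genes rose. The part of transcript length in the rise of these genes was not tested. Ribosomal genes that rose also numbered 25 without preOP 1 or preOP 2 and 68 without delayed 2 and nonunion 2 in the fit, where 41 respiratory genes rose. Respiratory genes that rose numbered 11 without preOP 1, 12 without preOP 2, 15 without preOP 3, 18 without normal 1 and 21 without normal 3.

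Genes of muscle formation rose in 7 of 16 and fell in 1 (median 2.91). Tnnt2, the troponin of embryonic muscle and heart, stood at 50.1, 164 and 63 CPM against 0.0493, 0.0944 and 0.0616 CPM (log2 10.26, SE 1.92, adjusted p = 0.0019). Myog, which drives myoblast fusion, stood at 43.9, 169 and 61.7 CPM against 0.987, 0.708 and 1.79 CPM (log2 6.31, adjusted p = 0.014), a call lost without preOP 2. Normal 2 was highest for both, and 3 to 5 members rose when any 1 of the 6 libraries was left out. Genes of mature muscle had a median of -3.27, but only Pvalb, a calcium buffer of fast fibres, was called lower of 23 (adjusted p = 0.017, lost without normal 1). Myh4, the fast myosin, was at 102, 236 and 1.4 CPM against 1870, 2140 and 385 CPM and was not called (adjusted p = 0.12). Library delayed 2, with 10.1% of its reads on the mature muscle list, shares the estimate of spread, and without it and nonunion 2 in the fit 13 of 23 were called lower and 13 of 16 formation genes higher.

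Fat cell genes fell in 6 of 12 (median -3.20). Adipoq, the fat cell hormone adiponectin, stood at 0.902, 1.9 and 0.586 CPM against 157, 98.6 and 69.8 CPM (log2 -6.60, SE 2.33, adjusted p = 0.041), and Lep, leptin, had no read in the hematoma. The libraries of the groups were far apart, yet none of the 6 was called when any 1 of the 6 libraries was left out, and 9 were called without delayed 2 and nonunion 2 in the fit. Of 10 Schwann cell and nerve genes 3 fell and 2 rose (median -1.12). Gfap, an intermediate filament of glia, stood at 0.201, 0.49 and 0.27 CPM against 37.7, 52.2 and 83.6 CPM (log2 -7.50, SE 0.67, adjusted p = 7.5e-05).

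A few genes were near on or off between the groups. Ndufa10l1 had 830 reads in the hematoma and 0 in the femur, at least 273-fold higher against a floor of 3 reads over the group. Mboat7, a lysophospholipid acyltransferase, stood at 54.2, 38.5 and 48.2 CPM against 0.0987, 0.189 and 0 CPM (log2 8.77, adjusted p = 0.0001). In the other direction Klkb1, plasma prekallikrein, had 0 reads in the hematoma and 1155 in the femur, at least 390-fold lower. Delayed and nonunion hematomas held Klkb1 at means of 38.4 and 21.5 CPM and Mboat7 at 0.0781 and 0.0276 CPM, so for both genes the 9 other libraries of the series stood with the femur. The sets that are on or off in normal alone coincide with the files of a different form, and the part of that in these values was not tested. Panx3, a channel of osteoblasts and cartilage, stood at 46.3, 63.8 and 119 CPM against 0.395, 0.33 and 0.37 CPM (log2 7.68, SE 0.61, adjusted p = 6.2e-05).

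Which of these differences from the femur were larger or smaller in the normal hematoma than in the other hematomas was tested in the same fit, as normal minus the mean of delayed and nonunion. Of 12846 genes 2058 (16.0%) differed, 1244 higher (9.68%) and 814 lower (6.34%) in normal. Leaving out normal 2 gave 1201 and normal 3 gave 1140, and a fit of these 9 hematoma libraries alone gave 1218, while 3110 were called without delayed 2 and nonunion 2. Of the reads of delayed 2, 10.1% fell on mature muscle genes, and of those of nonunion 2, 72.2% fell on ribosomal RNA. Higher in normal were 11 of 14 osteoblast, 5 of 7 osteocyte and 10 of 13 cartilage genes. The lipid-associated macrophage list held 1 higher and 1 lower of 17, collagens 5 higher of 26, and the red cell membrane list 1 lower of 13. Neutrophil precursor genes, which fell or were not called against the femur, were higher than in the other hematomas in 11 of 14. The list held 1 lower, Ltf (log2 -3.35), which had 2 reads over the 3 normal libraries. Ngp, among the higher, overlapped, at 6.37 CPM in normal 2 and 6.75 CPM in delayed 1. Platelet genes were higher in 7 of 10. Of these, Ppbp, Gp1ba, Gp9 and Treml1 overlapped, with normal 2 below delayed 1 and normal 1 the highest hematoma. Gp1ba was at 14.5 CPM in normal 1, 0.735 CPM in normal 2 and 1.04 CPM in delayed 1. Ribosomal protein genes were higher in 57 of 79.

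For part of the bone genes the femur lay between the normal hematoma and the others. Ibsp, at 870, 907 and 1180 CPM in normal and 113 to 213 CPM in the femur, was at 2.61, 4.02 and 3.35 CPM in delayed and 4.9, 2.47 and 3.19 CPM in nonunion. No library of any group overlapped the next group in that order of normal, femur and other hematoma. Alpl, at 294 to 369 CPM in normal and 28.2 to 61.8 CPM in the femur, was at 1.41 to 4.64 CPM in delayed and 2 to 4.67 CPM in nonunion. Mmp13 was at 2.58 to 5.97 CPM in delayed and 0.771 to 3.92 CPM in nonunion, below the femur. Bglap was lower than in the femur in all hematomas, but at 0.887 to 1.75 CPM in delayed and 0.579 to 1.23 CPM in nonunion it lay far below its 68.8 CPM or more in normal. The differences of normal from the other hematomas were 7.30 on the log2 scale for Mmp13 and 9.42 for Mepe. By contrast Spp1 was at 13800, 5350 and 7000 CPM in delayed and 15800, 35.6 and 10100 CPM in nonunion, and its difference there was 0.15 (adjusted p = 0.93). All of these but nonunion 2, which lay below the femur, were in or near the range of normal. All values in this paragraph share the same 3 femur and 3 normal libraries.

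**Figure D4:**
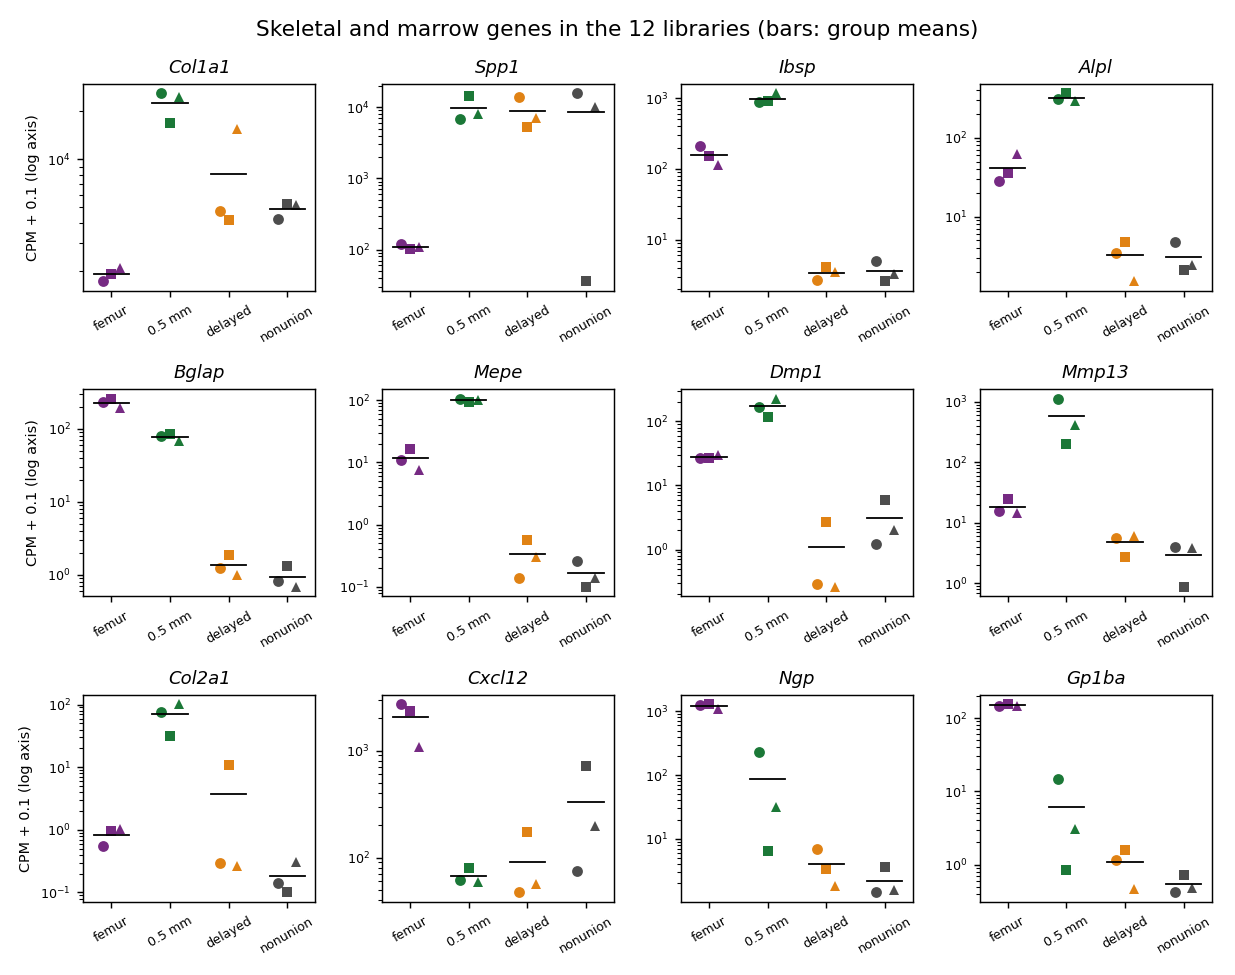
CPM of selected genes in all 12 libraries, on a log axis, with points as single libraries and bars as group means. Ibsp, Alpl and Mmp13 were highest in normal, intermediate in the femur and lowest in delayed and nonunion, while Cxcl12, Ngp and Gp1ba were highest in the femur.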

How the data were processed

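RNA from 3 normal healing hematomas and 3 preOP femur pieces was compared within the 12 rat libraries of the series, and sample groups follow the titles. Per the labels' protocols, RNA was extracted with Trizol from flash-frozen tissue and 1 ug of total RNA entered the Illumina TruSeq RNA kit. The label does not say whether strand is kept, so reads of overlapping antisense genes cannot be told apart. Per the submitters' processing notes, bcl2fastq 1.8.4, FastQC, Trimmomatic, Salmon and the build rn6 were used, with no version of the others in the sources used here. Per the file headers, the authors deposited estimated counts of reads, TPM and lengths for each of 18321 RefSeq transcripts. The deposited TPM were not used. The deposited effective lengths served 1 alternative.

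Rounded estimated counts were added up per symbol (17367 transcripts, 16425 symbols), and 954 unmatched transcripts stayed as single features. Genes were tested with edgeR 4.0.16 in R 4.3.3 (TMM, filterByExpr, quasi-likelihood F-test, two-sided, 8 residual degrees of freedom) over all 4 groups, with a Benjamini-Hochberg adjusted p under 0.05 as the call. SE is the absolute log2 fold change over the square root of F. A count of 0 is bounded by 3 reads, which covers counting error only. Simulated data of 12846 genes held changes planted in 67 genes at 8-fold, 74 at 4-fold and 59 at 2-fold. Recovery was 76.1%, 44.6% and 3.4% in that order, and 3.4% of the simulated calls were false. Far fewer genes were changed there than the 42.6% called in the data, so these rates need not hold for the data.

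The gene lists and members were chosen with earlier results of these data known: 44 lists, 894 of 970 entries found. Named genes are, each way, the 12 largest and 8 most abundant called genes whose libraries do not overlap (the former at a mean of at least 5 CPM), up to 4 called members per list (2 abundant ones where fewer than 2 were called) and the 6 that differ most from other hematomas. The text gives a part of these, and list members beside them were picked after their values were seen. Alternatives were DESeq2 1.42.0 and its size factors, limma 3.58.1 voom, no filter, other sets of libraries, a replicate block, no globin or ribosomal RNA, effective lengths as offsets, a minimum fold of 2, and each library left out. Pairs of libraries with identical counts numbered 0. Promoters were searched in 250 bases before the start, and 200 are shown. Their letters come from a RefSeq table of GRCr8, and no sequence of the authors' build was used.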

Additional observations from a re-analysis of the deposited data

Results flagged for a closer look

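The difference between the normal hematoma and the femur was itself unlike that between the other hematomas and the femur in 2058 genes, by the test of normal against the mean of delayed and nonunion. Among the 199 genes named by the rule 66 passed it, 56 higher and 10 lower in normal. All values that follow are log2 differences, normal minus the mean of delayed and nonunion, from edgeR's quasi-likelihood test. Among bone genes the differences were Sp7 5.37, Sost 5.15, Phex 5.64, Mepe 9.42, Panx3 10.28, Col1a1 1.83 and Col1a2 1.54. For cartilage genes they were Col2a1 6.79, Hapln1 7.41 and Acan 3.29. Values for matrix and protease genes were Serpinh1 1.19, Cthrc1 2.56, Mmp3 3.72, Mmp13 7.30 and Timp1 1.50. Among signalling genes the differences were Fzd2 2.60, Frzb 2.96, Id3 2.49, Smad6 3.30, Tgfb3 1.10, Igfbp2 3.38, Pdgfa 1.27 and Il11 3.57. For the vessel gene and immediate early genes they were Sox18 3.00, Junb 2.38, Ier2 1.73, Jund 2.29 and Ier5l 4.67. Values for neutrophil and eosinophil genes were Ngp 4.97, Gfi1 3.14, Camp 4.45, S100a8 4.02, S100a9 3.77, Rnase3 10.65 and Rnase17 9.76. Among platelet, mast cell and B cell genes the differences were Ppbp 3.75, Gp1ba 3.29, Gp9 3.68, Treml1 1.97, Fcer1a 2.67, Rag1 3.83 and Igll1 2.99. Of these all but Igll1 overlapped the other hematomas through normal 2, and normal 1 was the highest hematoma for each. Among the genes before them, Col1a2, Phex, Serpinh1, Frzb, Il11 and Ngp also overlapped the other hematomas in at least 1 library. For ribosomal and respiratory genes they were Rpl36 3.63, Rplp1 2.36, Rps26 1.78, Rpl17 2.01, Uqcrq 2.59, Cox8a 2.02, Cox6a1 2.03 and Ndufs5 1.28. For the remaining genes they were Ndufa10l1 10.29, Mboat7 9.59, Tmem158 8.39, Apoe 1.71, RT1-A1 3.04 and RT1-A2 5.03. Lower in normal than in the other hematomas were Klkb1 -12.18, Rn5s -7.03, Mlxipl -5.45, Aqp4 -5.10, Cyp11b1 -4.95, Perm1 -4.54, Vegfd -3.87, Ltf -3.35, Mx2 -2.02 and Lyve1 -1.22. Some sizes lean on delayed 2 or nonunion 2. Rn5s was at 2750 CPM in nonunion 2 and 1.44 to 31.2 CPM in the rest of delayed and nonunion. In delayed 2 Perm1 was at 121 CPM (3.01 to 7.09 CPM in the rest) and Aqp4 at 20.1 CPM (0.959 to 4.62 CPM). Mlxipl was at 39.1 CPM in delayed 2, 48.7 CPM in nonunion 2 and 1.12 to 9.52 CPM in the rest. Ltf and Mx2 overlapped. The normal libraries are also those whose files differ in form, and that and the group cannot be told apart.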

How the results depend on the processing

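No call of the 199 named genes against the femur, nor of the 66 named genes called against the other hematomas, changed sign in any setting run for it. Of 195 called against the femur, 159 stayed called in each of up to 16 settings that gave a value (14 genes lacked 1, mostly DESeq2's) and 36 were lost in at least 1, most often with a minimum fold of 2 (31 genes) or without preOP 2 (24 genes). Of the 66, 36 stayed called and 30 were lost in at least 1. With a minimum fold of 2, calls against the femur fell from 5466 to 2319 (1074 higher, 1245 lower), and against the other hematomas from 2058 to 433 (284 higher, 149 lower). Calls against the femur rose to 7560 without delayed 2 and nonunion 2, to 7061 in the fit of the compared groups alone and to 6168 with DESeq2. Against the other hematomas, DESeq2's Wald test gave 1487 lower calls, the fit of the compared groups alone gave 1218 (827 higher, 391 lower), and the fit without delayed 2 and nonunion 2 gave 3110 (1407 lower). Leaving out 1 library gave 3952 to 4846 calls against the femur and 1140 to 2287 against the other hematomas (725 to 1237 higher, 392 to 1078 lower). The cause of these shifts was not tested, except that the minimum fold is a stricter test and the fits without a library have fewer samples. Small counts in a list, of 1 to 3 members, often rested on single libraries. The replicate numbers do not pair the samples: same-numbered hematoma and femur libraries deviated with correlations of 0.12, -0.13 and -0.18, and with the number as a block 5298 genes were called, 5067 of them in both fits. Depth limits what can be said of genes at a few reads, where a count of 0 allows up to 3 reads.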
